A study of Homo sapiens with 12 samples.

Results

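Replication-dependent histone genes were followed across an eCLIP experiment on QKI, an RNA-binding protein of the KH family that regulates splicing. Their members were the clusters of both endogenous QKI libraries that carried a gene name starting with HIST1H, HIST2H, HIST3H or HIST4H. There were 158 such clusters of 616191 in all, with 86 in the first library and 72 in the second, and they came from 39 of 16973 named genes. The genes comprised 3 of the linker class H1, 12 of H2A, 11 of H2B, 4 of H3 and 9 of H4. In the libraries of tagged QKI, clusters that overlapped a member on the same strand were taken, which gave 16 and 49 clusters for the mutant and 16 in each wild type library.

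Replication-dependent histone messages are made during S phase from clustered genes that mostly have no intron. Their 3′ end is cut by a complex containing the U7 small nuclear ribonucleoprotein and ends in a stem-loop bound by SLBP, in place of a poly(A) tail. QKI binds ACUAA-type motifs, often in introns next to regulated exons and in 3′ UTRs, so messages without introns offer a contrast to the spliced targets for which QKI is known.

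The cells were HEK293xT per the sample labels (HEK293T in the treatment protocol), a human embryonic kidney line, and every library came from cells crosslinked at 254 nm and 400 mJ/cm2. The 3 groups had 2 immunoprecipitation (IP) libraries each, every one with its size-matched input. The mutant group expressed myc-QKI-5 with the substitutions K120A and R124A, and the wild type group expressed unsubstituted myc-QKI-5. Both were transfected transiently with 10 µg of plasmid for 72 hours and precipitated with an anti-MYC antibody, in cells that still had their own QKI. The endogenous group was unmodified and precipitated with an anti-QKI antibody, so transfection and antibody cannot be told apart from the group in any comparison of tagged with endogenous QKI. Whether paired libraries were grown as separate cultures is not recorded in the labels, and p-values therefore cover the spread between these libraries alone, which may be technical.

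The lists held 231814 and 272728 clusters for the mutant, 226962 and 273269 for wild type, and 384347 and 231844 for endogenous QKI. Each cluster carries the authors' log2 fold of IP over input and the −log10 p of that enrichment. For tagged QKI every listed cluster is above input, whereas the endogenous lists also keep clusters below input. Where the mutant or wild type lists no cluster, the region may thus be missing or merely not above input. Read depth is unknown, and many clusters with low −log10 p share identical folds, so single low values are coarse. Of the markers of a kidney line, 8 of 9 had an endogenous cluster, against 0 of 9 for stem cells and 3 of 9 for cardiomyocytes. The series' design note names embryonic stem cells, and the sample labels name HEK293xT.

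The name "intronless" did not cover every member. Of the 158 clusters, 134 were annotated as coding sequence, 7 as 3′ UTR and 2 as noncoding exon. The other 15 clusters were annotated to an intron or splice site of a histone gene. HIST1H2BN, an H2B gene, carried 8 of them. HIST1H2BK and HIST2H2BF, also H2B genes, carried 2 each, and HIST1H2AC, HIST1H2BD and HIST4H4 carried 1 each. The exon clusters and the intron clusters are described apart below, because their median values in the endogenous libraries differed in sign. Histone genes occur in near-identical copies, so which copy a coding cluster came from is uncertain.

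Histone messages were mostly recovered below input by endogenous QKI. In the 2 endogenous libraries 75 of 86 member clusters (87.2%, exact Clopper-Pearson 95% interval 78.3 to 93.4%) and 62 of 72 (86.1%, 75.9 to 93.1%) lay at or below input. Over all clusters this share was 40.4% and 14.4%. The median log2 fold of members was −1.77 and −2.22, against 0.26 and 1.15 over all clusters. These intervals cover counting error only.

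**Figure D1:**
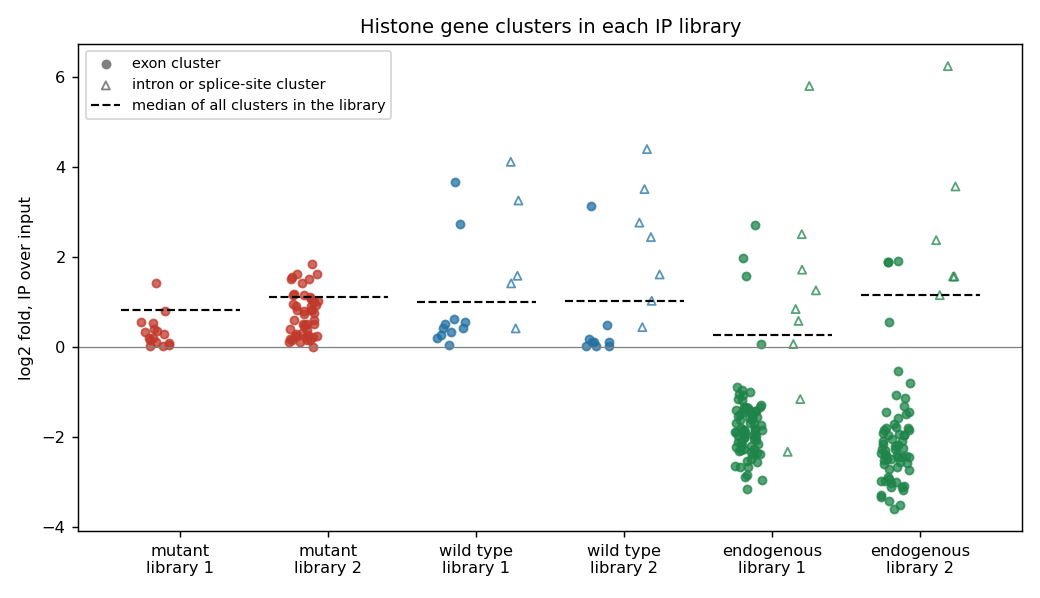
Log2 fold of IP over input (vertical axis) for every histone gene cluster in each of the 6 IP libraries; filled circles are exon clusters, open triangles are intron or splice-site clusters, and dashed lines are the median of all clusters of that library. Most endogenous exon clusters lie below 0, the mutant libraries hold exon clusters alone, and lists of tagged QKI have no values at or below 0 by construction.

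The low values belonged mostly to the exons. Exon clusters of histone genes had a median log2 fold of −1.84 over 77 clusters and −2.28 over 66 clusters, and 73 and 62 of them were at or below 0. Exon clusters of other genes had medians of −0.42 and 0.15, with 64.4% and 44.8% at or below 0. Within coding sequence alone, the histone medians were −1.85 and −2.35, against −1.11 and −0.44 for the coding sequence of other genes. Intron and splice-site clusters of histone genes had medians of 0.84 over 9 clusters and 1.97 over 6 clusters, and 8 of these clusters came from HIST1H2BN. At or below 0 were 2 of the 9 and 0 of the 6. Intron and splice-site clusters of other genes had medians of 0.26 and 1.15, so higher values in introns than in exons were not particular to histone genes.

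Clusters of the same strand with 1 or more bases in common were merged into regions, and regions found in both endogenous libraries were tested against an IP-to-input ratio of 1 with limma over all 104130 regions. Of the 45 histone regions tested, from 30 genes, 39 were lower in the IP than in input at a Benjamini-Hochberg adjusted p of 0.05, when 2.90% of all regions were. Histone regions higher in the IP numbered 4, when 61.2% of all regions were higher. The median log2 fold was −2.02 over the histone regions and 1.50 over all regions. Among exon regions the background was closer, with 19.1% of 13410 lower and 33.9% higher, and 38 of 41 histone exon regions were lower. The spread that limma estimated was the same for every region, so each log2 fold has an SE of 0.55, and the p-values depend on that shared spread more than on the 2 libraries of a region. The lower regions ranged from −1.19 to −2.95, with a median of −2.09, which is a 4.26-fold lower recovery in the IP. In 41 of the 45 both libraries were below 0 and in 4 both were above, so none had libraries of opposite sign. Over all regions, both libraries were below 0 in 7.03%, and the share with opposite signs was not counted.

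**Figure D2:**
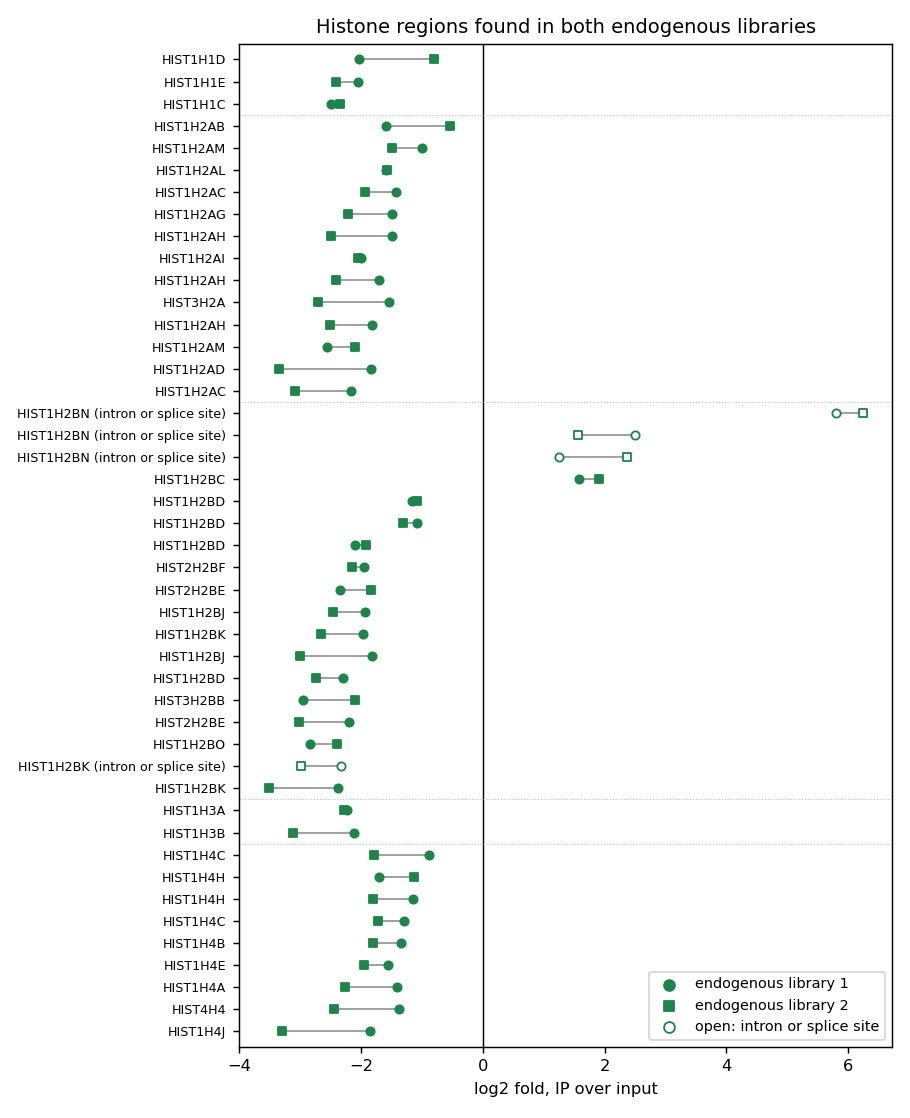
Log2 fold of IP over input (horizontal axis) for the 45 histone regions found in both endogenous libraries, by gene and grouped by histone class; circles are library 1, squares library 2, open symbols mark introns or splice sites, and a line joins the 2 libraries. HIST1H2BN introns and HIST1H2BC lie right of 0, and the other regions lie left of it in both libraries.

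The core histones shared the pattern with H1. All 3 regions of the linker histone H1 were lower, with a median of −2.23. Of 13 H2A regions 12 were lower, with a median of −2.02, and the remaining one was HIST1H2AB. Both H3 regions were lower, at −2.26 and −2.62. All 9 H4 regions were lower, with a median of −1.57. H2B was the class with both directions, with 13 of 18 regions lower, 4 higher and 1 not called. Values in the 2 libraries correlated over the 45 regions with a Pearson r of 0.92, and over all regions with 0.75, a description over regions that share their libraries. The r of 0.92 includes the HIST1H2BN distal intron, at 5.80 and 6.24, far above the other histone regions. The r without it was not computed. The median absolute difference between libraries was 0.65 on the log2 scale for histone regions and 0.72 for all regions.

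The lowest regions came from several classes. HIST1H2BK had coding values of −2.38 and −3.52 in the 2 endogenous libraries, a mean log2 fold of −2.95 with a limma adjusted p of 5.9e-07. HIST1H2AC, an H2A gene, had −2.16 and −3.09, with a limma adjusted p of 9.3e-06. HIST1H3B had −2.12 and −3.12, with a limma adjusted p of 1.0e-05. In each of these genes the second library was the lower one. HIST1H2BO had −2.83 and −2.40, HIST2H2BE −2.19 and −3.02, and HIST1H4J, the H4 gene with the lowest p, −1.85 and −3.29. HIST1H1C, the H1 gene with the lowest p, had −2.49 and −2.35. The order among these genes is not resolved, because their means differ by less than the SE.

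Exon regions nearest to input included HIST1H2AB, with −1.59 and −0.53 in the 2 endogenous libraries and a limma adjusted p of 0.078. The 3′ UTR region of HIST1H2BD was also not called, with −1.17 and −1.07 and a limma adjusted p of 0.064. Of the other 3 regions of HIST1H2BD, all coding, each was lower, at −1.19, −2.01 and −2.52. HIST1H1D had −2.03 and −0.80 and was lower, with a limma adjusted p of 0.019. The genes HIST1H4H, HIST1H4C, HIST1H4B, HIST1H2AL, HIST1H4E, HIST1H4A, HIST1H2AG and HIST4H4 followed in the ranking by their best region, from −1.47 to −1.90, and all were lower.

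Clusters were few per gene. HIST1H2BD and HIST1H2BN had 11 endogenous clusters each, the most of any histone gene, followed by HIST1H2BK with 9 and HIST1H2AC with 8. HIST1H2AD had 6, as had HIST1H2AG, HIST1H2AH, HIST1H2BJ, HIST2H2BE and HIST4H4. In HIST1H2AD the 2 libraries ran from −1.40 to −1.98 and from −3.17 to −3.34. Its values did not overlap between the libraries. The median gene had 3 clusters, and 31 of the 39 genes had a cluster in both libraries. The 9 genes with no region shared by both libraries were not tested.

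HIST1H2BC, an H2B gene, was the exception among exons. At its 3′ end (hg19 chr6:26123696-26123789, minus strand) the endogenous libraries held a 3′ UTR cluster at 1.98 and 1.91, joined by a coding cluster at 1.58 and 0.55. The region was higher in the IP, with a mean log2 fold of 1.75 and a limma adjusted p of 0.0035. That mean set the coding cluster of library 1 (1.58) beside the 3′ UTR cluster of library 2 (1.91). The 3′ UTR clusters were only 9 and 8 bases long. The call was lost with the longest cluster per library (1.07, limma adjusted p 0.079) and with each library centred on its median (0.25, limma adjusted p 0.73). The wild type libraries had 3.66 and 3.14, in clusters of 5 and 84 bases. The 74-base cluster next to that of wild type library 1 had 2.72, below the fold of 3 used for enrichment. Mutant library 2 listed a cluster at 0.94 from 26123785 to 26123831, which overlapped the edge of the region but not its 3′ UTR clusters or the enriched wild type clusters, and mutant library 1 listed none. Only 4 further endogenous exon clusters were above input, each in a single library: HIST2H2BC at 0.06, HIST4H4 at 2.72, and HIST2H4A with a pair of clusters at 1.89. Their −log10 p lay between 0 and 1.37, so none reached the value of 3 used for enrichment. They were named after their values were seen, and HIST2H2BC is a pseudogene in RefSeq (GRCh38.p14).

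The highest value of any histone cluster lay in an intron of HIST1H2BN (chr6:27815761-27815964, plus strand), 8910 bases beyond the last exon cluster of that gene. Wild type libraries had log2 folds of 4.11 and 4.39 there, and endogenous libraries 5.80 and 6.24. The mutant libraries had nothing that overlapped it. For wild type the authors' −log10 p was 8.91 and 11.1, and for endogenous QKI it was 19.3 and 22.8. The 4 enriched clusters shared 128 bases, from 27815782 to 27815909. Against input, the endogenous mean was 6.02 with a limma adjusted p of 2.6e-25, which became 4.4e-05 among regions with a mean −log10 p of at least 2 and 0.0043 after centring (mean 4.52). Within 1000 bases of the site the mutant libraries listed clusters only away from the centre, at 0.02 in library 1 and at 1.69 in library 2, with −log10 p of 0 and 0.45.

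**Figure D3:**
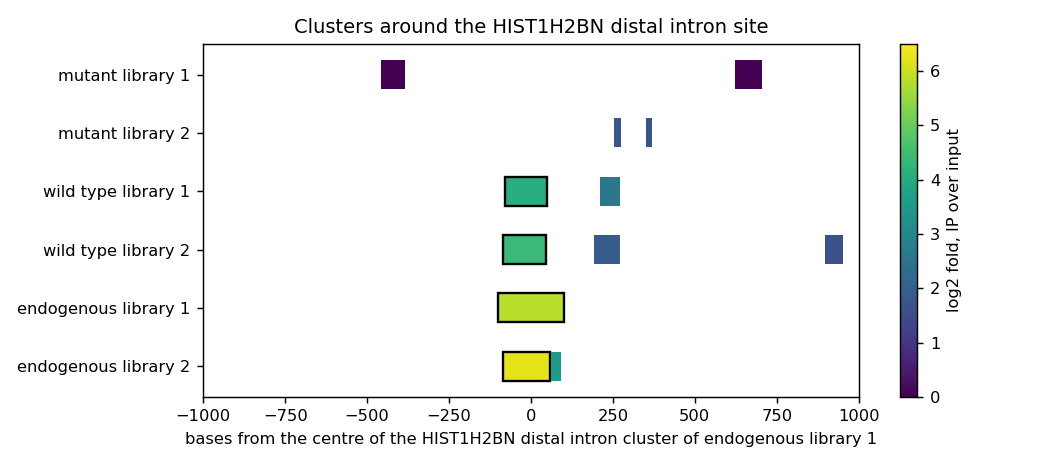
Clusters within 1000 bases of the HIST1H2BN distal intron site in the 6 IP libraries; the horizontal axis is the distance in bases from the centre of the cluster in endogenous library 1, colour is the log2 fold over input, and a black outline marks an enriched cluster. The 4 wild type and endogenous libraries share the central position, with 4.11 to 6.24, and both mutant libraries leave it empty.

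A nearer intron stretch of HIST1H2BN (chr6:27809629-27809819, plus strand) was weaker. For wild type its best clusters reached 1.58 and 2.76, and for endogenous QKI 2.51 and 2.37. The mutant had none. Its 2 endogenous regions were called higher by limma at 2.03 (adjusted p 0.00064) and 1.81 (adjusted p 0.0024), while the authors' −log10 p of the single clusters stayed between 0.16 and 1.21. After centring neither was called, at 0.54 and 0.32 (limma adjusted p 0.47 and 0.68). HIST1H2BK had an intron site at chr6:27106802-27106872 on the minus strand, 7301 bases from its nearest exon cluster. Wild type libraries had 3.25 and 3.51 there, endogenous library 1 had 1.72 with a −log10 p of 0.50, and endogenous library 2 and both mutant libraries listed nothing. A further HIST1H2BK region across a 5′ splice site was low, at −2.33 and −2.98 in the endogenous libraries, like the exon of that gene. HIST1H2BN had 2 further intron clusters, each in 1 endogenous library, at 0.84 and, next to the distal site, at 3.56 with a −log10 p of 2.69. The intron clusters of genes other than HIST1H2BN and HIST1H2BK lay in HIST1H2AC, HIST1H2BD, HIST2H2BF and HIST4H4 and ran from −1.16 to 1.61, with −log10 p of at most 0.66.

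Clusters were called enriched when both log2 fold and −log10 p reached 3, and such clusters were found at 3 histone genes only. The mutant libraries had 0 of 16 and 0 of 49 member clusters enriched, where 0.0405% and 0.304% of all their clusters were. The wild type libraries had 3 of 16 each (18.8%, Clopper-Pearson 95% interval 4.05 to 45.6%), where 2.07% and 1.89% of all clusters were enriched. Among wild type clusters that overlapped an endogenous cluster of another gene, 4.61% and 4.54% were enriched in exons and 5.05% and 5.03% in introns or splice sites. Split the same way, 1 of 11 and 1 of 9 histone exon clusters were enriched (9.09% and 11.1%). For histone introns or splice sites it was 2 of 5 and 2 of 7 (40.0% and 28.6%). The endogenous libraries had 1 of 86 (1.16%, 0.029 to 6.31%) and 1 of 72 (1.39%, 0.035 to 7.50%), where 4.22% and 5.39% of all clusters were. The wild type clusters were HIST1H2BN distal intron, HIST1H2BK intron and the HIST1H2BC 3′ end in both libraries, and the endogenous cluster was HIST1H2BN in both. The wild type share has few clusters in its denominator, since clusters at or below input are not listed.

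The authors' deposited table of reproducible peaks, made from these same libraries, listed the same sites and is not separate support for them. It held 0 histone peaks of 55 for the mutant, 3 of 3671 for wild type and 1 of 12409 for endogenous QKI. In the authors' deposited table the wild type peaks had log2 folds of 4.25 at HIST1H2BN, 3.84 at HIST1H2BC and 3.38 at HIST1H2BK. The endogenous peak in the authors' deposited table was HIST1H2BN at 6.04.

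Exons and introns also parted in which of them the tagged proteins listed. Of the 82 histone exon regions of the endogenous libraries, the mutant libraries listed a cluster at 22 (26.8%, Clopper-Pearson 95% interval 17.6 to 37.8%) and 50 (61.0%, 49.6 to 71.6%). The wild type libraries listed 10 each (12.2%, 6.01 to 21.3%). Exon regions of other genes were listed at 15.3% and 19.4% by the mutant and 18.2% and 17.4% by wild type. For regions found in both endogenous libraries, the mutant listed 9 and 33 of the 41 histone exon regions (22.0% and 80.5%), beside 22.1% and 26.3% of other exon regions, so mutant library 1 did not stand apart. For those regions wild type listed 9 and 7 histone exons (22.0% and 17.1%), beside 44.2% and 41.4% of other exons. Of the 11 histone intron or splice-site regions, the mutant libraries listed 0 each (0 to 28.5%), and wild type listed 5 (45.5%, 16.7 to 76.6%) and 7 (63.6%, 30.8 to 89.1%). Intron regions of other genes were listed at 8.46% and 9.57% by the mutant and 18.2% and 19.5% by wild type. Mutant library 2 listed over 50% of the histone exon regions and mutant library 1 did not, and the part of that library in the mutant values was not tested.

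Member clusters had median log2 folds of 0.24 and 0.73 in the mutant, against 0.83 and 1.11 over all clusters of those libraries. All were coding sequence, and mutant clusters in the coding sequence of other genes had medians of 0.50 and 0.69, so the second library was not lower than that. In wild type the member medians were 0.54 and 0.47, against 1.00 and 1.02 over all clusters, and these pool exons with introns. Wild type histone exon clusters had medians of 0.41 and 0.12, against 1.00 and 0.90 for exon clusters of other genes. The histone intron or splice-site clusters had 1.58 over 5 clusters and 2.44 over 7, against 1.41 and 1.21 for other genes. The highest mutant value at a histone gene was 1.43 in library 1, at HIST1H4H, and 1.84 in library 2, at HIST1H4D.

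Mutant minus wild type could be tested at 3 histone regions, all coding sequence of H4 genes with a cluster in all 4 libraries. HIST1H4C had log2 folds of 0.35 and 1.52 in the mutant, against 0.41 and 0.025 in wild type. HIST1H4E had 0.029 and 0.60 in the mutant, against 0.054 and 0.025 in wild type. HIST1H4H had 1.43 and 1.17 in the mutant, against 0.61 and 0.12 in wild type. The groups overlapped at HIST1H4C and HIST1H4E and did not at HIST1H4H. How many of the 5356 regions had groups without overlap was not counted, so HIST1H4H is not set apart by this. The differences were 0.72 ± 0.56, 0.27 ± 0.49 and 0.94 ± 0.49 (SE, n = 2 libraries a group), with limma adjusted p-values of 0.63, 0.85 and 0.48. None of the 3 passed in either direction, where 0.0187% of 5356 regions were higher and 0.597% lower, and none had an unadjusted limma p under 0.05. The intron sites of HIST1H2BN and HIST1H2BK could not be tested here, having no mutant value.

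Wild type minus endogenous could be tested at 6 histone regions, of which 0 passed limma's adjusted threshold, where 0.797% of 32631 regions were higher and 5.68% lower. At an unadjusted p of 0.05, 4 were higher and 1 was lower, where 4.86% of all regions were higher and 20.6% lower. The 3 H4 regions had differences of 1.84 ± 0.66 at HIST1H4H, 1.79 ± 0.65 at HIST1H4E and 1.55 ± 0.67 at HIST1H4C (SE, n = 2 libraries a group). Their limma adjusted p-values were 0.099, 0.10 and 0.16. The wild type values listed above were all above 0. The endogenous values were below it, −1.15 and −1.80 at HIST1H4H, −1.55 and −1.95 at HIST1H4E, and −0.88 and −1.79 at HIST1H4C. A region entered only where both wild type lists held a cluster, and those lists hold no value at or below 0. With endogenous values below 0, the sign at the 3 H4 regions was thus fixed in advance. They were among the 4 regions higher at an unadjusted limma p of 0.05. HIST1H2BC differed by 1.65 ± 0.65 (limma adjusted p 0.13). The HIST1H2BN distal intron differed by −1.76 ± 0.65, lower in wild type (limma adjusted p 0.11), and the proximal intron by −0.27 ± 0.68 (limma adjusted p 0.84). With values summarised per gene name, 2 of 8 histone genes were called higher in wild type, where 1.14% of 9444 genes were: HIST1H2BK by 3.72 and HIST1H2AD by 2.60 (limma adjusted p 0.028 each). For HIST1H2BK that contrast set the intron cluster of both wild type libraries beside the same intron cluster in endogenous library 1 and an exon cluster, at −2.41, in endogenous library 2. For HIST1H2AD the cluster of wild type library 1 lay elsewhere in the coding sequence than the endogenous clusters. The cluster of wild type library 2 overlapped both endogenous ones. Since wild type lists hold no value at or below 0, a gene entered this contrast only where wild type was above input, so neither call is a like-for-like difference.

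**Figure D4:**
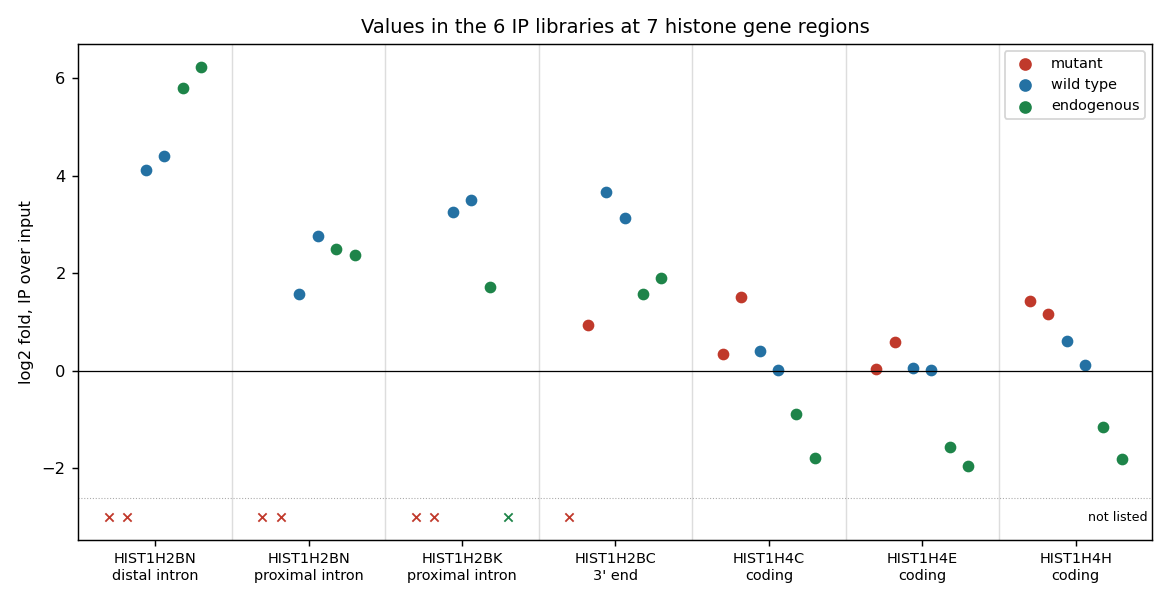
Log2 fold of IP over input (vertical axis) in the mutant, wild type and endogenous libraries at 7 histone gene regions; each point is a library, and crosses under the dotted line mark libraries that list no cluster there. The mutant is absent from the 3 intron sites. At the 3 H4 coding regions endogenous points lie below 0, and mutant and wild type points lie above it, the only side their lists hold.

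Other groups of genes gave a scale for the exon values. Ribosomal protein genes, whose messages are spliced and abundant, had 266 of 299 endogenous exon regions lower than input and 10 higher, with a median log2 fold of −2.61, against −2.05 for the 41 histone exon regions. Other genes without introns in their coding sequence had 14 of 37 lower and 5 higher, with a median of −1.01. Replication-independent histone genes, most of which have introns and poly(A) tails, had 11 of 24 lower and 5 higher, with a median of −0.90. Genes that process histone messages or act at histone loci had 9 of 46 lower and 7 higher, with a median of 0.03. The histone exon median thus lay between those of ribosomal protein genes and other intronless genes, and a low exon value was found in spliced as well as unspliced messages. No test of these differences between lists was made.

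**Figure D5:**
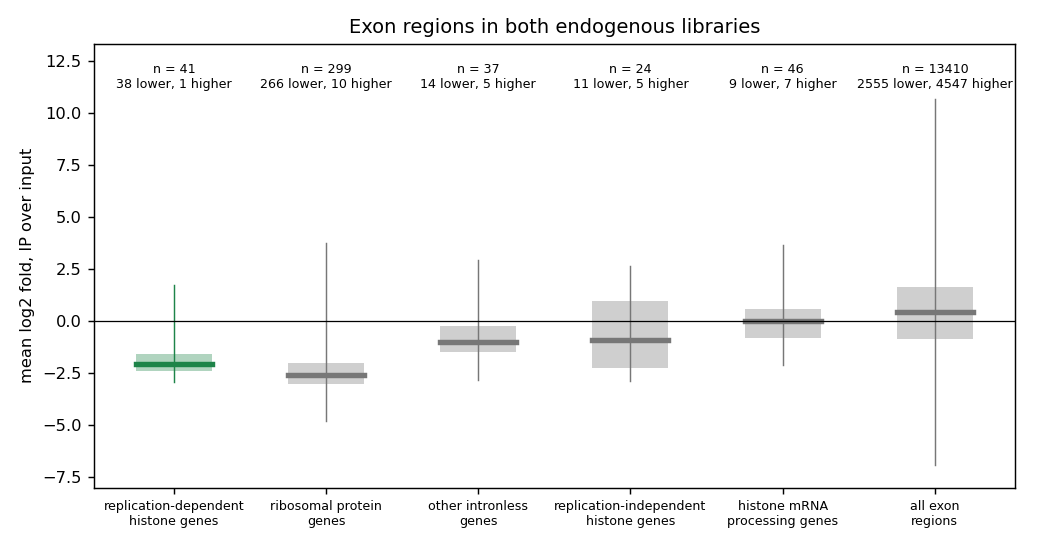
Mean log2 fold of IP over input (vertical axis) for exon regions found in both endogenous libraries, for histone genes, 4 other gene lists and all exon regions; thick lines are medians, boxes span the middle of the values from the lower to the upper quartile, thin lines reach the lowest and highest region, and the numbers above give regions tested and called. Histone exons have a median of −2.05 and ribosomal protein exons −2.61, both below all exon regions at 0.44.

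The share of exon regions that mutant library 2 listed was also high among ribosomal protein genes, at 323 of 544 (59.4%), beside 61.0% at histone exons. Mutant library 1 listed 15.8% of ribosomal protein exons and 26.8% of histone exons. In wild type, ribosomal protein exons were listed at 15.1% and 13.4%, and histone exons at 12.2% in each library. Replication-independent histone exons were listed at 25.9% and 48.3% by the mutant and 31.0% by each wild type library. Other intronless genes were listed at 22.0% and 27.0% by the mutant and 20.6% and 15.6% by wild type.

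In the endogenous libraries, 0.380% of all 87593 intron or splice-site regions were lower than input and 65.5% higher. Ribosomal protein genes had 25 of 46 intron or splice-site regions higher and 1 lower, and replication-independent histone genes had 13 of 29 higher and 0 lower. Of the intron or splice-site regions of histone-processing genes, 161 of 234 were higher than input and 0 lower. The leading ones, chosen after their values were seen, were in ZCCHC11, at 6.41 and 6.13 in the 2 endogenous libraries, and in the exonuclease gene XRN1, at 5.53 and 6.35. Among replication-independent histones, an intron region of CENPA, the centromeric H3 variant, had 4.51 and 4.52, and the 5′ UTR of H3F3A had −2.95 and −2.76. Among intronless genes the 3′ UTR of KCTD12 had 2.87 and 3.02, and the coding sequence of the heat shock gene HSPA1B had −2.74 and −2.95. These genes too were chosen after their values were seen.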

How the data were processed

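The 6 IP libraries of a series of 12 were analysed, and the 6 inputs enter through the authors' folds. Per the submitters' processing notes, UMI-tools, cutadapt, STAR and SAMtools were used with build hg19; for their versions and for the cluster caller no source used here gives a name. The deposited clusters carry the authors' log2 fold over input and the authors' −log10 p, which is 0 for clusters below input. The deposited score of the browser tracks was not used. Depth is unknown.

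Regions (1 shared base, same strand) took the cluster with the highest −log10 p per library and were tested with limma 3.58.1 (R 4.3.3), two-sided, Benjamini-Hochberg over all regions. Other steps used Python 3.11.15. A cluster's exon or intron class is the authors' annotation. No normalization beyond the authors' was applied. Members, lists and tests were chosen with earlier results of these data known. Genes named were those of the 12 highest and 5 lowest best regions, the 5 with most clusters, every gene with an enriched cluster, every gene tested in mutant minus wild type, and per histone class the gene with the lowest p. All 39 names matched RefSeq, 37 of them to 1 symbol. A planned motif count was not run. Data were also simulated, with 50 regions shifted per size. At a log2 shift of 2 the endogenous test over 104130 regions called 88%. Mutant minus wild type over 5356 regions called 24%, and wild type minus endogenous over 32631 regions called 46%. The simulation drew normal noise with the spread that limma had fitted and did not copy the tied folds. These shares therefore hold under the model's own assumptions. The simulation was redesigned after its first version had been seen.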

Additional observations from a re-analysis of the deposited data

Results flagged for a closer look

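Of 77 histone regions merged over the 6 libraries, both mutant libraries listed 12, all of them exons. At 11 of the 12 both mutant libraries were above input and both endogenous libraries below it. At 3 of these 11 both wild type libraries were above input as well. How often this occurs over all regions was not counted. These differences in sign were not tested as such. The lists of tagged QKI hold no values at or below 0, so their sign is fixed wherever they list a cluster. The count of 11 and the sign of the differences below therefore rest on the endogenous values alone. Over all regions found in both endogenous libraries, both were below 0 in 7.03%. For the mutant minus endogenous, the mean differences of log2 fold were 3.16 and 3.02 at the pair of HIST1H2AD regions, 2.76 at HIST1H2AI, 2.39 at HIST1H2BF, 2.81 at HIST1H4A, 2.17 at HIST1H4B, 2.27 at HIST1H4C, 2.06 at HIST1H4E, 2.77 at HIST1H4H, 2.82 at HIST3H2A and 2.10 at HIST4H4. For wild type minus endogenous they were 1.55 at HIST1H4C, 1.79 at HIST1H4E and 1.84 at HIST1H4H, where limma over all regions did not call them.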

How the results depend on the processing

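Endogenous IP against input kept 39 to 41 lower histone regions with robust eBayes, centring and the longest cluster per library. Centring each library on its median left 1 region higher and moved the histone median to −3.52, since the median of all regions is 1.50, and 8.49% of all regions were then lower and 11.7% higher. Exon regions alone, chosen after seeing the data, had 1 higher. Regions with a mean −log10 p of at least 2 left 2 histone regions, both higher, 0 lower, with a median of 3.88, because the authors' −log10 p is 0 below input. Without either endogenous library the histone median was −2.15 to −1.81.

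Mutant minus wild type called 0 histone regions in every alternative that tested one, and with −log10 p of at least 2 none was left to test. Its median of 0.72 ranged from 0.14 to 0.91 with a library left out, and HIST1H4E ranged from −0.011, without mutant replicate 2, to 0.56. Wild type minus endogenous had a median of 1.60, which was 1.31 to 1.78 with a library left out, 2.20 after centring and −0.055 over the 2 regions with −log10 p of at least 2. It called 2 higher per gene name and 2 with a spread shared by all 6 libraries (HIST1H4E and HIST1H4H, where 5.70% of 1895 regions were higher). The sign at HIST1H4E and HIST1H4H was fixed, since wild type lists hold no value at or below 0 and the endogenous values were below it. The HIST1H2BN proximal intron turned to 0.33 after centring and ranged from −0.86 to 0.32, its highest value without wild type replicate 1, with a library left out. The replicate number as a block called 0 histone regions in both comparisons, with medians of 0.72 and 1.60. Over all regions tested, the deviations of same-numbered libraries from their group means correlated at −0.04 and 0.01. The numbers thus carried no visible shared effect, and whether they mark pairs was not settled.

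The wild type enriched count of 3 became 1 when the fold threshold was 4, and its share of 18.8% became 6.25% there, 21.9% at a fold of at least 2, 19.4% with only-histone names and 21.4% when at least 50% of a cluster had to overlap. That overlap moved the wild type median of 0.50 to 0.65. The endogenous share of 1.28% became 9.55% over clusters above 0, and the endogenous median of −2.00 became 1.73 there. Over clusters with −log10 p of at least 2 the medians were 1.29 in the mutant, 3.48 in wild type and 2.77 in endogenous. Where no construction is named, the cause was not tested. Unknown depth limits every low value, and the depletion of histone exons rests on 2 libraries with no p from the authors.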
